A study of Mus musculus with 4 samples.

Results

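Small nucleolar RNA (snoRNA) loci were followed in mouse embryonic stem cells depleted of Kdm5b, an enzyme that strips methylation from lysine 4 of histone H3. They were chosen by name. A row of the deposited table was taken where its RefSeq identifiers led to a single gene symbol that starts with Snord (C/D box), Snora (H/ACA box) or Scarna (Cajal body), and where its mean over the 4 libraries was at least 1 FPKM. FPKM is the number of sequenced fragments of a transcript, divided by its length and by a scaling factor for the library. Of 23697 rows, 113 carried such a symbol and 94 reached that mean: 57 C/D box, 30 H/ACA box and 7 Cajal body loci. The other 19 rows, 10 of them Snord116 copies, were listed at 0 in every library, so no locus lay near the threshold, and the lowest mean that passed was 85.8 FPKM. A further 6 rows pair a snoRNA with another symbol and were kept apart.

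The cells were of the WW6 line, of mixed C57/B6J, 129/Sv and SJL background, grown without feeder cells on gelatin in medium with serum and leukemia inhibitory factor. Control cells were transiently transfected with small interfering RNA (siRNA) against GFP and knockdown cells with siRNA against Kdm5b, with the same lipid reagent. Each group gave 2 libraries, A and B, from total RNA depleted of ribosomal RNA. Whether A and B came from separate cultures is not in the labels. A p-value here sets the difference between the groups against the spread between libraries of a group, and that spread may be technical. The time from transfection to harvest is not given in the sources used here.

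Both main classes of snoRNA are short nuclear RNAs that pair with other RNAs and bring an enzyme to a chosen base. C/D box RNAs guide the 2′-O-methylation of ribosomal RNA by fibrillarin, and H/ACA box RNAs guide the conversion of uridine to pseudouridine by dyskerin. Cajal body RNAs carry the same boxes and guide the modification of spliceosomal RNAs. Most mammalian snoRNAs lie in introns of a host gene, often one for a ribosomal protein or translation factor. They are released when the intron is spliced out, opened and trimmed, while the exons of the host take a separate path.

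The loci whose values carry the results below are shown here by sequence, from the GENCODE vM21 annotation of GRCm38, each read 5′ to 3′ on its own strand. Capitals mark an exact TGATGA (C box) within the 20 bases at the 5′ end and a CTGA (D box) within the 20 bases at the 3′ end, or the ACA that stands 3 bases before the 3′ end of an H/ACA RNA. Snord104 and Snord83b had the highest FPKM, Snord42b, Snora41 and Scarna3a had the smallest p on the higher side, Snord73b and Snord1b dropped to 0 in 1 knockdown library, and Snora16a led the H/ACA class.
Snord104: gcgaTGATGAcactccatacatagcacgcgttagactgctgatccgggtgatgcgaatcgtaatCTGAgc
Snord83b: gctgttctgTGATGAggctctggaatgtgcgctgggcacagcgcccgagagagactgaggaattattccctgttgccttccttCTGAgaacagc
Snord42b: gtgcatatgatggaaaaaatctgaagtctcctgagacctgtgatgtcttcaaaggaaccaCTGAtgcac
Snord73b: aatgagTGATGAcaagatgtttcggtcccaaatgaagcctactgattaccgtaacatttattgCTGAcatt
Snord1b: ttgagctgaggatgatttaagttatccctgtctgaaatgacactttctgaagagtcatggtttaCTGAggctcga
Snora16a: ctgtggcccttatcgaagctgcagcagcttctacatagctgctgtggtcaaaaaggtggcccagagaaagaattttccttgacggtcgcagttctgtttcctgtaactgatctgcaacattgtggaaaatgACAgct
Snora41: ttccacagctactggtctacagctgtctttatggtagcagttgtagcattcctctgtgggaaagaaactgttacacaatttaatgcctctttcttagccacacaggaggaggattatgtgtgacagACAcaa
Scarna3a: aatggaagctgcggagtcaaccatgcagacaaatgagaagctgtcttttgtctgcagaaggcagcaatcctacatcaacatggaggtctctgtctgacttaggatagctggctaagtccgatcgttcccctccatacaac
Snord104 spans chr11:106500993-106501062 on the plus strand, with no gene around it on that strand. Snord83b lies at chr15:80078498-80078591 on the minus strand, in an intron of the ribosomal protein gene Rpl3. Snord42b lies at chr11:78183056-78183124 on the minus strand in Rpl23a, where it overlaps an exon of at least 1 transcript. Snord73b lies at chr3:86140618-86140688 on the minus strand, in an intron of Rps3a1, and GENCODE lists it as Rnu73b. Snord1b lies at chr11:116674148-116674222 on the plus strand and overlaps an exon of at least 1 transcript of its host. Snora16a lies at chr4:132309464-132309600 on the plus strand in the noncoding host Snhg12 and overlaps an exon. Snora41 lies at chr1:63179004-63179135 on the plus strand in an intron of Eef1b2, a translation elongation factor gene. Scarna3a lies at chr1:159340283-159340422 on the plus strand in an intron of Cop1.

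The names and the sequences went together. All 94 loci were matched by position to a GENCODE entry. Among C/D box loci 38 of 57 (66.7%) held TGATGA, 55 (96.5%) held CTGA and 36 (63.2%) held both. Among H/ACA loci 24 of 30 (80%) ended in ACA and 3 bases, 4 (13.3%) held CTGA in its window and 0 held TGATGA. All 30 H/ACA loci held ANANNA, the H box pattern, but so did 59.1% of 1962 GENCODE microRNA hairpins of 64 to 414 bases, so this pattern separates little. In those hairpins TGATGA was found in 0.153%, CTGA in 8.56%, both in 0.051% and the terminal ACA in 3.57%. Of the 7 Cajal body loci, 3 held both C/D boxes and 2 (28.6%) the terminal ACA. Only the sense strand was searched, and Snord42b and Snord1b show that a locus can lack the exact TGATGA. Scarna3a held none of the boxes in these positions and is printed without capitals.

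Before the levels are read, the length of these RNAs has to be taken into account. The RefSeq length ran from 45 to 221 bases in C/D box loci (median 68), from 61 to 198 in H/ACA loci (median 121) and from 61 to 275 in Cajal body loci (median 118), while the cDNA was sheared to about 300 bp. The GENCODE entry was longer than the RefSeq length at 78 of the 94 loci, equal at 11 and shorter at 5. The sequences shown above can therefore differ in extent from the RefSeq intervals, on which the fragment numbers below rest. An RNA shorter than a typical fragment has few positions at which a fragment can lie, and the deposited FPKM divides by that number of positions. In control B 1 fragment was worth 1044 FPKM at 45 bases, 269 FPKM at 68 bases, 44.6 FPKM at 118 bases and 5.49 FPKM at 221 bases. These values come from a length function shared by all 4 libraries and a constant for each library. The fall therefore has the same shape in each library by construction. The curves of fragment worth against length are drawn for control B and knockdown A.

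**Figure D1:**
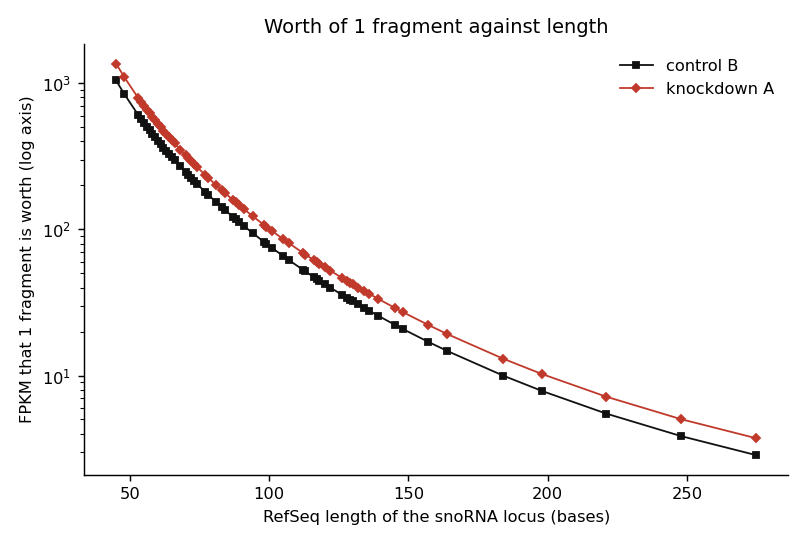
FPKM that 1 fragment is worth (vertical log axis) against the RefSeq length of the locus in bases, with 1 curve for control B and 1 for knockdown A. Between 45 and 221 bases values fall from 1044 to 5.49 FPKM in control B and from 1363 to 7.17 FPKM in knockdown A. Both curves share the same length function and differ by a constant, so that of knockdown A lies above that of control B at every length by construction.

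Because of these steps the number of fragments behind each value could be read back. With fragment lengths drawn from a normal distribution of mean 200 and SD 80 (the preset values of Cufflinks) and a lower end at 16 bases found by the fit, 94.7% to 95.7% of nonzero values in each library were whole numbers of fragments to within 0.06. This held in every library for 89 of 94 loci. The exceptions were Snora62, Snora28, Snord35b and Scarna13. Snora47, whose row carries several RefSeq identifiers, was left out of this check and of the percentages. No fragment number is given for any of these loci. The same steps give the scaling factor by which the table divides each library. It was 102% of that of control B in control A, 76.6% in knockdown A and 98.5% in knockdown B. Whether this factor is the number of mapped fragments alone is not stated in the labels, so it is not a measured depth.

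FPKM and fragments order the loci differently. Across 94 loci Spearman's rho of mean FPKM with length was 0.17, and across the 89 loci with fragment numbers rho of mean fragments with length was 0.65. Mean FPKM and mean fragments had a rho of 0.83. These describe loci that share the same libraries and, for many, the same host, and carry no test.

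The snoRNA loci held most of the FPKM in the table. Their FPKM summed to 73.8% of the table in control A, 72.6% in control B, 79.4% in knockdown A and 73.8% in knockdown B. In fragments they held 60965, 46766, 62414 and 60522 in the same order, over the 89 loci. Knockdown A therefore held the most snoRNA fragments although its scaling factor was the lowest, and control B held the fewest. C/D box loci gave 31111, 25477, 31247 and 30639 fragments, H/ACA loci 29090, 20639, 30511 and 29222, and Cajal body loci only 764, 650, 656 and 661. The median number of fragments per locus was 60.5 for C/D box, 646 for H/ACA box and 35.8 for Cajal body loci, so an FPKM of an H/ACA locus usually rested on more fragments.

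**Figure D2:**
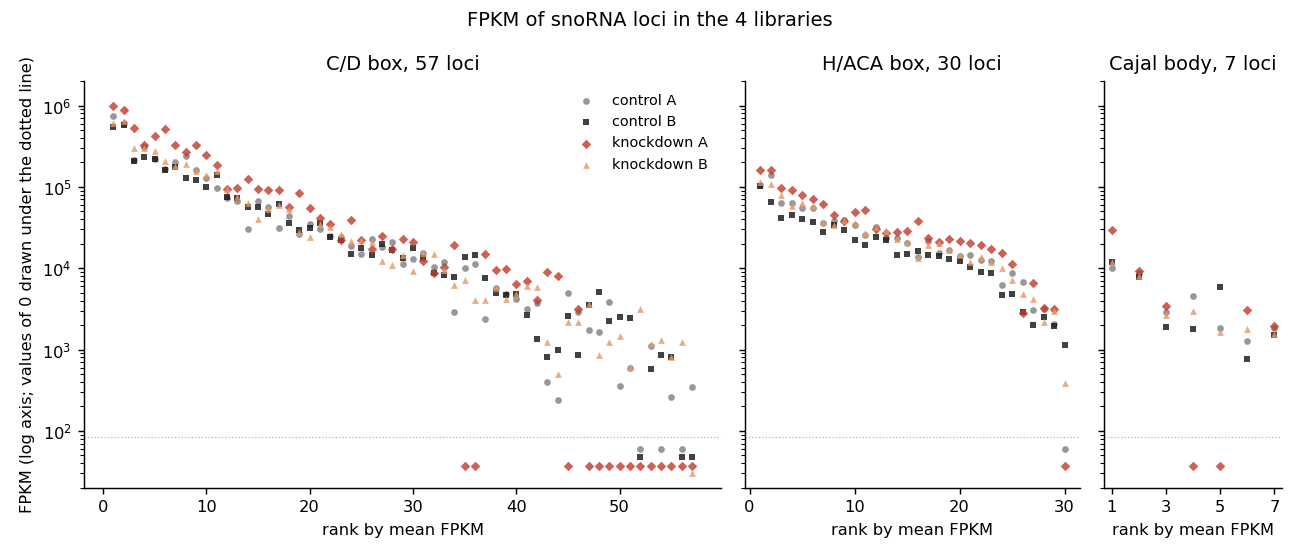
FPKM of each snoRNA locus (vertical log axis) in the 4 libraries, with the loci of each class ranked by mean FPKM along the horizontal axis and values of 0 drawn under the dotted line. Knockdown A lies highest at 64 of the 94 loci, and it also holds 17 of the values at 0.

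Among C/D box loci the mean FPKM ran from 85.8 to 727542 with a median of 15512. Snord83b had 750749 FPKM in control A, 547638 in control B, 998379 in knockdown A and 613400 in knockdown B, from 4258, 3034, 4237 and 3347 fragments. Its groups overlapped, with knockdown B under control A. The limma log2 fold change, knockdown minus control on log2(FPKM + 1), was 0.29 with a standard error (SE) of 0.60. Snord104, which stands alone at its locus, had 603883 and 568272 FPKM in the control libraries, against 871133 and 645329 in knockdown A and B. Both knockdown libraries lay above both controls, but knockdown B only just, and the log2 fold change was 0.36 (SE 0.56).

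Snord22 held the most fragments of any member, 8784 and 6499 in controls A and B and 7068 and 8314 in knockdown A and B. It is 1 of the longer C/D box RNAs, so this gave 307209, 232690, 330359 and 302239 FPKM, less than Snord83b reached with fewer fragments. The groups overlapped (log2 fold change 0.24, SE 0.48). Snord69, in the nucleolar GTPase gene Gnl3, had 216418 and 207070 FPKM in the control libraries, against 535072 and 304119 in knockdown A and B. Its controls lay close together and both knockdown libraries above them (log2 fold change 0.93, SE 0.52). Snord99, in Snhg12, had 167179 and 162060 FPKM in the control libraries, 511438 in knockdown A and 205554 in knockdown B. Here, too, the controls agreed closely and knockdown A stood far above the other 3 (log2 fold change 0.98, SE 0.58).

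Snord57 lies in the gene of Nop56, a core protein of C/D box particles. It had 219466 and 220540 FPKM in the control libraries, against 425107 and 276404 in knockdown A and B, above both controls in each (log2 fold change 0.64, SE 0.49). Of the 5 other most abundant C/D box loci, Snord16a (log2 fold change 0.73) and Snord65 (0.57) lay above both controls in both knockdown libraries. The groups of Snord49b (0.38), Snord32a (0.38) and Snord49a (0.68) overlapped.

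Among H/ACA loci the mean FPKM ran from 384 to 121030 with a median of 20782. Snora16a had 105937 and 101253 FPKM in the control libraries, against 161024 and 115906 in knockdown A and B, from 3917, 3657, 4455 and 4123 fragments. Both knockdown libraries were above both controls (log2 fold change 0.40, SE 0.41). Snora81, in the gene of the translation initiation factor Eif4a2, had 62700.5 and 41209.7 FPKM in the control libraries, against 97153.3 and 79727.7 in knockdown A and B. The knockdown libraries again lay above, although the controls differed from each other by nearly as much as the groups did (log2 fold change 0.79, SE 0.39). Snora52 (0.58) and Snora3 (0.51) were also above in both knockdown libraries, while the groups of Snora44 (0.48) and Snora7a (0.43) overlapped.

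Cajal body loci were the lowest class, with means from 1712 to 15860 FPKM. Scarna2, alone at its locus, rested on 27 and 31 fragments in the controls, 59 in knockdown A and 31 in knockdown B (log2 fold change 0.78, SE 0.46). Its RefSeq length was 61 bases, against 414 in GENCODE, so its FPKM and its rank in the class depend on the length used. Scarna8 had the most even values of those named, 199 and 174 fragments in the controls, 161 in knockdown A and 176 in knockdown B (log2 fold change 0.08, SE 0.26). Scarna13 stood at 0.36 with overlapping groups.

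In the comparison of Kdm5b knockdown with control, the targeted gene had 99.7 and 145 FPKM in the control libraries, against 22.7 and 31.1 in knockdown A and B. Its log2 fold change was -2.14 (SE 0.30), and with an adjusted p of 0.56 in limma it was not called. No snoRNA locus was called either: at a Benjamini-Hochberg adjusted p under 0.05 in limma, 0 of 94 were higher and 0 lower, against 0% and 0.0339% of the 11784 loci tested. The smallest adjusted p of a member was 0.918. At an unadjusted p under 0.05, 6 members were higher and 0 lower, against 0.967% and 1.49% of all loci. Without knockdown B, 12 members, all at 0 in knockdown A, were called lower and 1 (Snord72) higher, against 1.01% and 0.127% of all loci. Without knockdown A, 2 members were called higher, Snord42a and Snord70, against 0.0933% of all loci, and 0 lower, against 0.0170%. Those 2 calls rest on 3 and 2 fragments in knockdown B, with both loci at 0 in both controls.

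Most members lay on the higher side. The log2 fold change was above 0 at 73 of 94 loci (77.7%), against 47.1% of all loci tested. Both knockdown libraries stood above both controls at 35 members (37.2%), against 15.0% of all loci, and below both at 6, against 16.9%. The groups overlapped at the other 53. The median log2 fold change was 0.43 over the 94 loci and -0.03 over all loci. By class it was 0.36 for C/D box, 0.47 for H/ACA box and 0.08 for Cajal body loci. The H/ACA class had 27 of 30 loci on the higher side and 16 (53.3%) with both knockdown libraries above both controls. The C/D box class had 41 of 57 and 17 (29.8%), and the Cajal body class 5 of 7 and 2 (28.6%). The classes were not tested against each other.

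The difference was larger in 1 of the knockdown libraries. Against the mean of the controls the median log2 difference was 0.62 in knockdown A and 0.19 in knockdown B, beside a median of 0.22 between control A and control B. Knockdown A alone lay above both controls at 68 members (72.3%; 36.8% of all loci), and knockdown B alone at 44 (46.8%; 29.1% of all loci). The highest of the 4 values fell in knockdown A at 64 members, and the lowest fell in control B alone at 49. No such count was made over all loci. After quantile normalization, which gives all 4 libraries the same distribution of values, the median of the 94 loci was 0.033 and that of the C/D box loci -0.032. Because these loci hold most of the FPKM, that step can itself remove a shift that they share. The median after it therefore cannot show whether there is such a shift. The library with the lowest scaling factor was thus the one with the highest snoRNA values, and the part of depth or RNA composition in this difference was not tested. In bulk samples fewer cells of a type and less RNA per cell cannot be told apart.

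**Figure D3:**
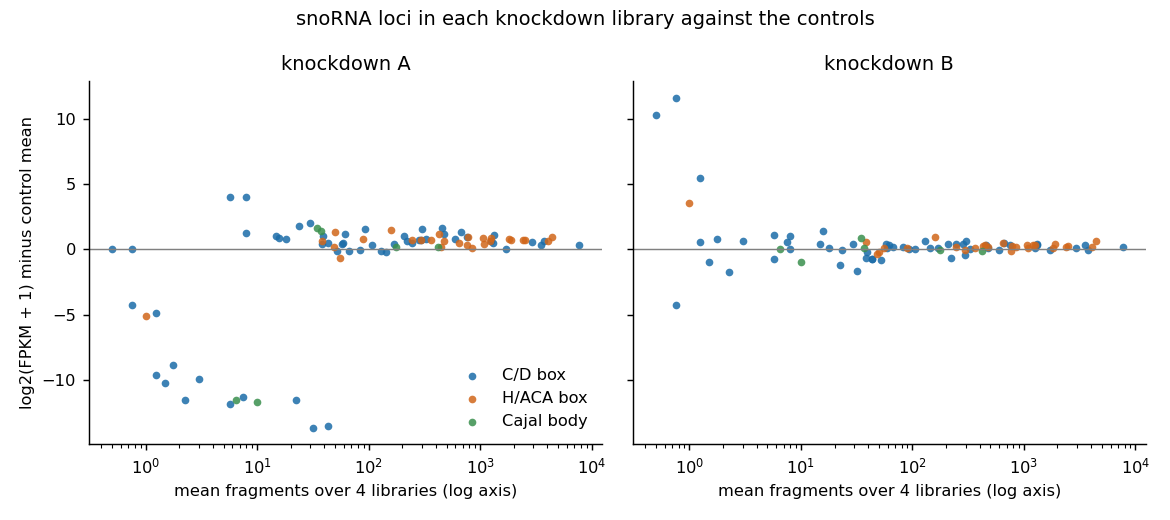
Log2 difference of each snoRNA locus from the mean of the controls in knockdown A and in knockdown B, against its mean number of fragments (log axis), for the 89 loci with fragment numbers. Points at or above 100 fragments lie mostly above 0 in knockdown A (median 0.69) and closer to 0 in knockdown B (median 0.20).

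Loci with many fragments varied less. At 47 loci with a mean of at least 100 fragments, the log2 fold change ran from -0.08 to 1.21 with a median of 0.43, and 45 were on the higher side. No value among them was 0. Knockdown A was the highest library at 41 of them and control B the lowest at 35, again with no count over all loci. The median was 0.43 for loci of 100 to under 1000 fragments and 0.44 both for those of 10 to under 100 and for those of 1000 or more. At the 16 loci under 10 fragments it was -4.11, with a median SE of 2.95, because 13 of them were at 0 in knockdown A.

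The smallest p on the higher side belonged to Snord42b, with 6 and 5 fragments in the controls and 10 and 11 in knockdown A and B. Each pair agreed closely and the groups did not overlap, but every value rested on few fragments (log2 fold change 1.16, SE 0.24). Snora41 had 125 and 90 fragments in the controls, 229 in knockdown A and 195 in knockdown B, which gave 6290, 4637, 15401 and 10200 FPKM. Both knockdown libraries lay well above both controls, and the log2 fold change was 1.21 (95% interval 0.43 to 2.00). It was the highest fold change among the well covered loci, and its adjusted p in limma was 0.918.

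Scarna3a followed, with 29 and 17 fragments in the controls, 52 in knockdown A and 40 in knockdown B (log2 fold change 1.26, SE 0.36). Snora47 had 3075 and 2032 FPKM in the control libraries, against 6594 and 4217 in knockdown A and B (log2 fold change 1.08, SE 0.33). Snord72 had 1 and 2 fragments in the controls, 17 in knockdown A and 3 in knockdown B, so that only knockdown A stood far above the rest (log2 fold change 2.55, SE 0.90). Both knockdown libraries thus lay above both controls at Snora41, Scarna3a, Snora47 and Snord72, at Snord72 with only 3 fragments in knockdown B. On the log2 scale knockdown B lay 0.89 above the control mean at Scarna3a and 0.75 at Snora47. The controls there differed from each other by 0.74 and 0.60.

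Of the 21 loci on the lower side, 14 were at 0 in knockdown A. The other 7 lay between -0.44 (Snord34, with 72 and 56 fragments in the controls, 45 in knockdown A and 36 in knockdown B) and -0.0021 (Snord100). Knockdown A listed 17 members (18.1%) at 0, against 7.91% of all loci tested, while control A listed 4, control B 3 and knockdown B 1. Of the 17, 14 were C/D box, 1 H/ACA and 2 Cajal body loci, all between 45 and 98 bases long, and 12 were above 0 in each of the other 3 libraries. No locus was at 0 elsewhere and above 0 in knockdown A. In the same library the lowest value above 0 was 10 fragments. In each of the other 3 libraries it was 1 fragment, and 12, 14 and 14 loci in control A, control B and knockdown B had 1 to 9 fragments.

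**Figure D4:**
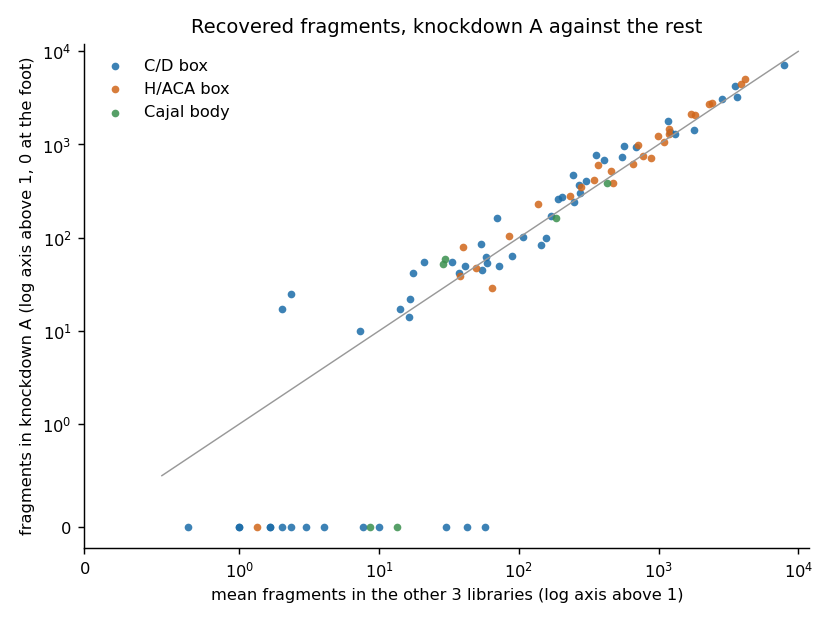
Recovered fragments in knockdown A against the mean of the other 3 libraries (both axes log above 1), with values of 0 in knockdown A drawn at the foot and a line of equality, for 89 snoRNA loci. No locus of knockdown A lies between 0 and 10 fragments, and the loci at 0 reach a mean of 57.3 fragments elsewhere.

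Several of the loci at 0 in knockdown A were well above 0 in the rest. Snord1b had 57 fragments in control A, 76 in control B, 0 in knockdown A and 39 in knockdown B. Snord73b had 49, 62, 0 and 17 fragments, and Snord67 had 48, 27, 0 and 15. In all 3 the value of 0 stood apart from 3 libraries with at least 15 fragments each. At lower levels Snord12 had 6, 12, 0 and 12 fragments and Snord52 had 12, 6, 0 and 5. Among Cajal body RNAs Scarna10 had 8, 25, 0 and 7 fragments and Scarna17 had 13, 5, 0 and 8. An exact 0 in such a table can also be a failed estimate, which was not tested.

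Elsewhere the same library showed the opposite. Snord4a had 1 and 4 fragments in the controls, 25 in knockdown A and 2 in knockdown B, and 18 members above 0 in knockdown A had a mean over the other 3 libraries of no more than 57.3 fragments. Low loci of knockdown A were thus either at 0 or at 10 fragments or more.

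On the lower side the 5 loci with the smallest p were all at 0 in knockdown A. Snord68 had 2 and 6 fragments in the controls and 1 in knockdown B, and Snord37 had 1, 4 and 1. Snord73b, Snord67 and Scarna10 were the other 3. Their fitted log2 fold changes, from -5.59 for Snord37 to -7.65 for Snord73b, depend on the amount added before taking logs. With 1 fragment added in place of 1 FPKM, a choice made after seeing the data, they became -1.15 for Snord37, -1.68 for Snord68, -2.41 for Scarna10, -3.18 for Snord67 and -3.70 for Snord73b. No member was above 0 in both libraries of 1 group and at 0 in both of the other. Snord42a (3 fragments, in knockdown B alone), Snord70 (2 fragments, in knockdown B alone) and Snord123 (3 fragments, in control A alone) were at 0 in the other 3 libraries, and no fold is given for them.

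Hosts were compared next. Of the 94 loci 89 share the locus string of the table with another row, and 5 stand alone: Snord104, Scarna2, Snord89, Snora30 and Scarna17. By GENCODE 47 lie in introns of every transcript of a gene, 42 overlap an exon of at least 1 transcript and 5 have no other annotated gene around them on their strand. Of these 5, Snora17 and Snora43 share the locus of Snhg7 in the deposited table, which was taken as their host, and their place within it is not given. Where a snoRNA overlaps an exon the 2 rows may share fragments. A host row was found for 86 snoRNAs, in 64 hosts, with mean levels from 0.50 to 262566 FPKM and a median of 132.

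The fold changes of the hosts lay closer to 0 than those of their snoRNAs. Of the 64 host rows 63 were tested. Snhg18, the host of Snord123, fell below 1 FPKM. Their median log2 fold change was 0.06, with 38 higher and 25 lower. By limma 0 were called at an adjusted p under 0.05, and 2 had an unadjusted p under it. The median of snoRNA minus host was 0.40, and the snoRNA had the higher fold change in 63 of 85 pairs. The median of the hosts was 0.08 in knockdown A and 0.07 in knockdown B, both against the control mean. Knockdown A held the highest value of 22 hosts and the lowest of 22 others. Over 72 snoRNAs with no value of 0, Spearman's rho between the fold changes of snoRNA and host was -0.13, as a description of loci that share libraries and hosts.

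**Figure D5:**
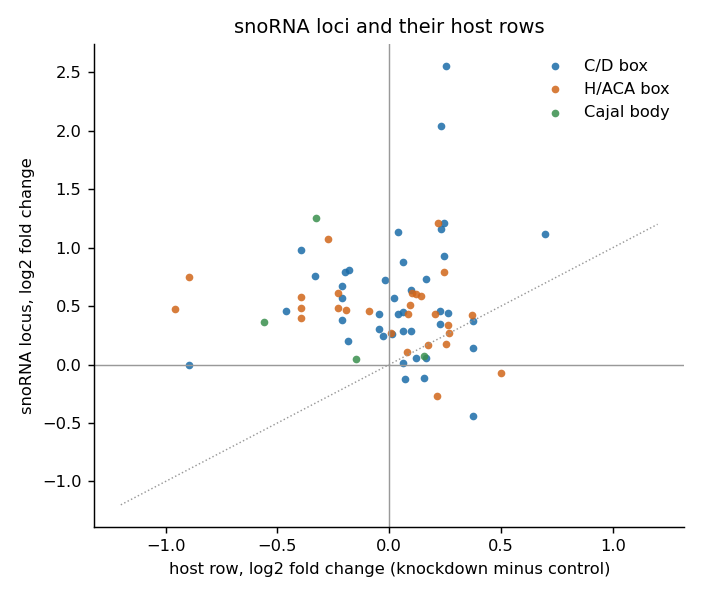
Log2 fold change of each snoRNA locus, knockdown minus control, against that of its host row, coloured by class, for the 72 pairs whose snoRNA was above 0 in all 4 libraries. The snoRNA lies above its host, over the dotted line of equality, in 60 of the 72 pairs.

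The pairs were also split by kind of host. In 22 ribosomal protein genes, with Rack1 counted among them, 31 snoRNAs had a median of 0.43 and their hosts 0.09. The mean levels of these host rows ran from 7.37 to 262566 FPKM. Whether each row measures the whole host transcript was not tested. In 10 noncoding host transcripts 16 snoRNAs had a median of 0.46 and the 9 hosts tested -0.03. In 7 genes of nucleolar proteins 12 snoRNAs had a median of 0.62 and the hosts 0.10. In 6 genes grouped as translation factors 7 snoRNAs had 0.27 and the hosts 0.19. That group includes Tpt1, which is not strictly such a factor. In 19 other genes 20 snoRNAs had a median of 0.06 and the hosts -0.15. These medians include snoRNAs not detected in every library. Those detected in every library were 27 of 31, 14 of 16, 10 of 12, 6 of 7 and 15 of 20, in the same order.

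Snhg12 carries 4 members and shows the contrast within 1 gene. The host row had 60.3 and 98.9 FPKM in the control libraries, 34.3 in knockdown A and 99.2 in knockdown B, lowest where its snoRNA Snord99 was highest. Its log2 fold change was -0.40 (SE 0.52), while those of Snord99, Snora44, Snora61 and Snora16a lay between 0.40 and 0.98. Snora61 had 13264 FPKM in knockdown B, under both controls. The row of Rpl13a had 242320 and 214766 FPKM in the control libraries, against 318208 and 274972 in knockdown A and B, far above other hosts and in the range of snoRNAs. The log2 fold change of Rpl13a was 0.37, against 0.38 for Snord32a, 0.14 for Snord35a and -0.44 for Snord34. Snord35a and Snord34 thus lay below their host. Snord33, a snoRNA of the same gene, is not among the members.

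Several snoRNAs of a single host differed widely in level. In 17 hosts with 2 or more members, 39 loci in all, the highest mean FPKM was 1.53 to 445 times the lowest, with a median of 6.61. The smallest ratio was among Snord49b, Snord49a and Snord65 of 2410006H16Rik, and the largest between Snord69 and Snord19 of Gnl3. In Snhg12 the ratio was 12.9 and in Rpl13a 12.6. In fragments, which are not corrected for length, the ratios ran from 1.64 (Snora43 and Snora17 of Snhg7) to 534 (Gnl3), with a median of 10.4. They were 80.8 in Snhg12 and 23.9 in Rpl13a. Rps3a1 held Snord73a, at 31577 and 61689 FPKM in the control libraries and 91786 and 60447 in knockdown A and B, beside Snord73b, which was at 0 in knockdown A. In knockdown A these neighbours in the same gene thus stood at the highest of 4 values and at 0.

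The genes for the proteins that bind, assemble or move snoRNAs lay on both sides of 0. Of 24 such genes, 14 were higher and 10 lower. By limma 0 were called and 0 had an unadjusted p under 0.05, with a median log2 fold change of 0.09. Among the C/D box core proteins the values were -0.06 for Fbl (fibrillarin, the methyltransferase), 0.10 for Nop56, -0.20 for Nop58 and 0.42 for Snu13. Fbl had 11.1 and 9.18 FPKM in the controls, 18.9 in knockdown A and 4.66 in knockdown B (SE 0.61). Its knockdown libraries thus lay on opposite sides of both controls. Among the H/ACA core proteins they were 0.28 for Dkc1 (dyskerin, the pseudouridine synthase), 0.33 for Nop10, 0.09 for Nhp2 and -0.05 for Gar1. Of 12 assembly and transport genes 7 were higher and 5 lower. Naf1, which acts in H/ACA assembly, had 10.2 and 11.5 FPKM in the controls, 1.84 in knockdown A and 11.3 in knockdown B, so only knockdown A was low. Shq1, which acts in the same assembly, was higher in both knockdown libraries (0.73, SE 0.34). The Cajal body genes Coil, Wrap53, Smn1 and Tgs1 had a median of -0.07.

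The labelled cell type was checked on markers. The 6 embryonic stem cell markers, Pou5f1 and Nanog among them, summed to between 3084 and 3988 FPKM in each library. The sums were 2.37 to 9.86 FPKM for 6 fibroblast markers, 1.65 to 4.45 for 5 endoderm markers and 51.8 to 62.4 for 4 neural markers, of which Tubb3 alone gave 38.4 to 50.8.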

How the data were processed

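The members, the lists and the rule for named loci were chosen with earlier results of these data known. Per the labels' protocols, RNA extracted with Trizol was freed of ribosomal RNA and copied with oligo-dT and random primers into strand-marked libraries. The authors deposited FPKM per locus. Cufflinks, Cuffdiff and mm9 are named in the submitters' processing notes. Not given in the sources used here are the aligner, tool versions, the treatment of reads with several matches and whether counting used strand. Values of near-identical copies and overlapping genes are therefore uncertain.

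Symbols came from RefSeq identifiers (1 symbol for 23241 loci, several for 189, none for 267). Loci whose 4 libraries averaged 1 FPKM or more were fitted on log2(FPKM + 1), a scale that shrinks changes at low levels, using limma 3.58.1 in R 4.3.3 (group alone, eBayes with trend, two-sided, Benjamini-Hochberg adjustment over 11784 loci). The fit was tested on simulated data. Fragment numbers were recovered from the steps in FPKM. Named loci were the 12 with the highest mean among those sharing a locus with a host, the 6 highest of each class and the 5 with the smallest p on each side. Other loci were named after their values were seen. Sequences and places came from GENCODE vM21 (GRCm38). The alternatives were other pseudocounts, filters, scalings and variance settings, the replicate letter as a block, and each library left out.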

Additional observations from a re-analysis of the deposited data

How the results depend on the processing

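The 0 calls among snoRNA loci held under every setting that kept all 4 libraries, and the count over all loci stayed at 1 to 7. It was 4 in limma as reported, 1 with no filter on low values, 2 with eBayes without trend and 7 with a replicate block on the letters. The labels do not say whether the letters pair the libraries. Deviations of the A libraries from their group means correlated at -0.07 over all loci tested and at 0.33 over snoRNA loci, and the block changed no call among snoRNA loci. With each library left out in turn, the lone library of a group being assumed to vary like the other group, the count over all loci ran from 0 to 134, that of snoRNA loci called lower from 0 to 12 and called higher from 0 to 2. The median log2 fold change ran from 0.19 (without knockdown A) to 0.62 (without knockdown B) over all snoRNA loci and from 0.17 to 0.51 over C/D box loci. Quantile normalization gave medians of 0.033 over all, -0.032 over C/D box and 0.13 over H/ACA loci. The cause was not tested. Under it the signs of Snord22 (-0.19), Snord49b (-0.015), Snord32a (-0.090), Snora16a (-0.039), Snora7a (-0.0073) and Scarna8 (-0.064) turned. Upper-quartile scaling turned Scarna8 (-0.0030) and moved the median of all loci to -0.10. Leaving out a library gave a range that crossed 0 for Snord83b (-0.064 to 0.64), Snord49b (-0.053 to 0.81), Snord32a (-0.060 to 0.81), Snora44 (-0.083 to 1.04), Scarna8 (-0.041 to 0.19) and Scarna17 (-11.50 to 0.028). Depth limits most the 16 snoRNA loci under 10 fragments, whose median SE was 2.95.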

Other observations

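The rows that pair a snoRNA with another symbol are values of both genes together. The row of Snhg16 and Snord1a, at the locus of Snord1b, was at 1343 and 1002 FPKM in the controls, 37.7 in knockdown A and 731 in knockdown B. It was lowest in the library in which Snord1b was at 0. The row of Scarna3b and Mir1843a had 443 FPKM in control A, 113 in control B, 0 in knockdown A and 192 in knockdown B. The rows of Snora26 with Dancr (log2 fold change 0.32), Snora34 with Mir1291 (0.50) and Snora36b with Mir664 (0.29) were on the higher side.

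Other stable noncoding RNAs were looked up after their values were seen. Terc, the telomerase RNA, which ends in an H/ACA domain, was at 509 and 421 FPKM in the controls and 444 and 519 in knockdown A and B, so its groups overlapped (log2 fold change 0.05). Rmrp and Rpph1, the RNAs of the RNase MRP and RNase P enzymes, both had a log2 fold change of 0.17, with control B the lowest library in each.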
